A study of Homo sapiens with 8 samples.

Results

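Messenger RNA of 10 enzymes that make serine, asparagine, proline and one-carbon units was followed in HT29 cells, an established human colorectal adenocarcinoma line, after treatment with 3 compounds that the study groups as reverse-turn peptidomimetics. The enzymes were PHGDH, PSAT1, PSPH, SHMT1, SHMT2, MTHFD2, MTHFD1L, ALDH1L2, ASNS and PYCR1, picked by gene symbol, and all 10 were found among the 18937 genes of the authors' tables. Cells received ICG-001 at 10 µM, CWP232228 at 1.5 µM, YB-0158 at 0.3 µM, or the vehicle DMSO at 0.1% alone. Each group had 2 RNA-seq libraries, taken at 48 h except for replicate 2 of ICG-001 and replicate 2 of CWP232228, which are given as 49 h. All groups are 1 cell line at 1 dose per compound, and the labels leave unsaid whether replicates are separate cultures. The p-values given here therefore rest on how far these libraries differ from one another, which may be a technical matter.

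Serine synthesis branches off glycolysis. PHGDH oxidises 3-phosphoglycerate, PSAT1 transfers an amino group from glutamate, and PSPH removes the phosphate to release serine. The SHMT enzymes then split serine into glycine and a one-carbon unit on folate, SHMT1 mainly in the cytosol and SHMT2 in mitochondria. In mitochondria MTHFD2 oxidises that unit, MTHFD1L releases it as formate, and ALDH1L2 burns it to CO2. ASNS makes asparagine from aspartate and glutamine, and PYCR1 performs the last step of proline synthesis. Several of these genes are textbook targets of the transcription factor ATF4, which cells make when amino acids run short or proteins misfold.

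Reads assigned to genes ran from 28556374 to 57425171 per library. The ICG-001 and YB-0158 libraries held 39264940 to 57425171 reads, and the CWP232228 and DMSO libraries 28556374 to 30497938. Both DMSO libraries lay further apart than the pairs of the treated groups. Over genes, the log2 difference of one replicate from the other had an SD of 0.13 for ICG-001, 0.14 for CWP232228, 0.13 for YB-0158 and 0.31 for DMSO (10181 genes), and this difference followed GC content, with a Spearman rho of 0.75, 0.55, 0.53 and -0.58. All 10 epithelial markers checked had reads, with a summed level of 8423 to 9468 TPM (transcript abundance corrected for transcript length and scaled to a fixed total) in treated libraries and 10169 to 10490 TPM in DMSO libraries. KRT8 alone held 4135 to 5300.5 TPM. CDX1 was low, at 0.374 to 0.811 TPM in treated libraries and 0.683 and 1.27 TPM in DMSO. Fibroblast markers summed to at most 4.22 TPM with COL1A2 at 0, and endothelial markers stayed under 1 TPM with CLDN5 at 0. Of 6 leukocyte markers, 3 reached 1 TPM in a library and CD3E was at 0. LYZ, an antibacterial enzyme that gut epithelium also makes, held 2482 to 2838 TPM. CD68 was at 3.65 to 7.13 TPM, and ITGAM was at most 1.49 TPM.

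All but 1 of the 9 enzyme mRNAs that could be tested were higher after ICG-001 and after YB-0158 than in DMSO, and SHMT1 was lower. With CWP232228, 6 were higher, SHMT1 was again lower, and SHMT2 and PYCR1 did not pass the test. The test was edgeR's quasi-likelihood test over 16449 genes, and a gene was called at a Benjamini-Hochberg adjusted p below 0.05. The background was large, since 24.8% of all genes tested were called higher and 24% lower with ICG-001, 21.6% and 21.2% with CWP232228, and 21.7% and 22.1% with YB-0158, so that 42.8% of genes were called in either direction with CWP232228. The median log2 fold change of the 9 genes was 1.14 with ICG-001, 0.94 with CWP232228 and 1.05 with YB-0158, against 0.03, 0.04 and 0.02 over all genes tested. Libraries of the compound and of DMSO did not overlap for 9 of 9 genes with ICG-001, 8 of 9 with CWP232228 and 9 of 9 with YB-0158, where 74.7%, 72.8% and 73.2% of all genes did not overlap. The 3 comparisons share the DMSO libraries. In a bulk sample of this kind, a change in the share of cells that express a gene and a change per cell cannot be told apart.

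**Figure D1:**
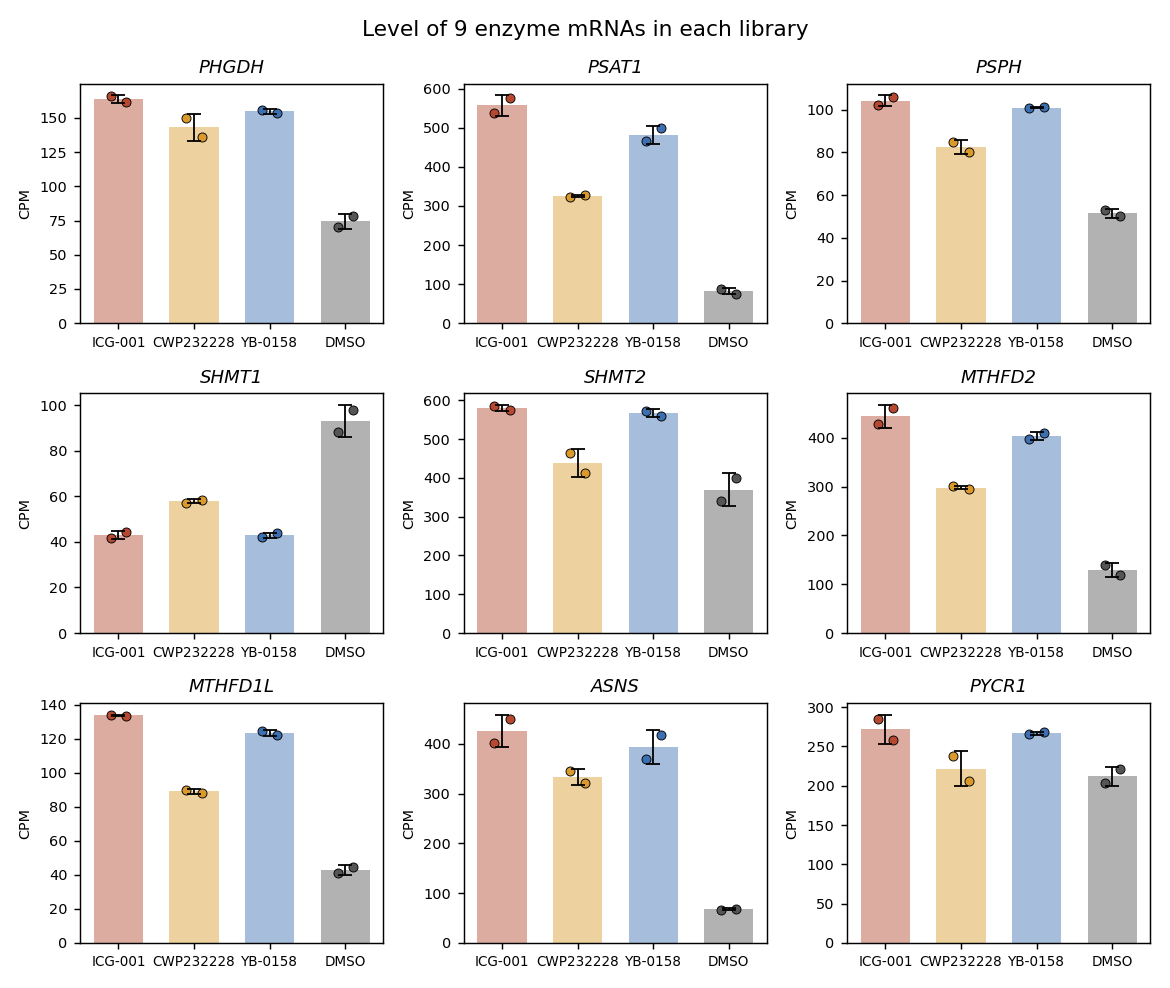
Read counts scaled to library size (CPM, vertical axes from 0) of the 9 tested enzyme mRNAs in every library. Points are libraries, bars the mean and whiskers the SD of 2 libraries, for ICG-001, CWP232228, YB-0158 and DMSO from left to right. DMSO is lowest for PHGDH, PSAT1, PSPH, MTHFD2, MTHFD1L and ASNS and highest for SHMT1, while the PYCR1 libraries of CWP232228 and DMSO overlap.

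Promoters of these genes, most of which rose while SHMT1 fell, are shown because the sequence TGATGNAA can be looked for in them. It is the core of the element through which ATF4 and C/EBP factors act on ASNS. Any part of it in the changes was not tested. RefSeq promoter windows on GRCh38.p14 were found for 6 of the 10 genes (ASNS, MTHFD1L, MTHFD2, PHGDH, PSAT1 and SHMT1), in 10 windows of 250 bases before an annotated start. TGATGNAA was in 3 of these 10 windows, which belong to 2 of the 6 genes, ASNS and MTHFD1L. The windows of MTHFD2, PHGDH, PSAT1 and SHMT1, the other ASNS window and the other MTHFD1L windows lack it. Below are 1 window each of ASNS and MTHFD1L with the motif, in capitals, and those of PSAT1 and SHMT1 without it. They lie as follows: ASNS, on the minus strand at chr7:97872409-97872658, MTHFD1L, on the plus strand at chr6:150866197-150866446, PSAT1, on the plus strand at chr9:78296875-78297124, and SHMT1, on the minus strand at chr17:18363551-18363800.
ASNS: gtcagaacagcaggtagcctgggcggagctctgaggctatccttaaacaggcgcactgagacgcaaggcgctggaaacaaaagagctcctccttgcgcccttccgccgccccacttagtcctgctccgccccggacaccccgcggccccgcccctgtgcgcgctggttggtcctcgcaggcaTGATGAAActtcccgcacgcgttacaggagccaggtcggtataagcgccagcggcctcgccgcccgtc
MTHFD1L: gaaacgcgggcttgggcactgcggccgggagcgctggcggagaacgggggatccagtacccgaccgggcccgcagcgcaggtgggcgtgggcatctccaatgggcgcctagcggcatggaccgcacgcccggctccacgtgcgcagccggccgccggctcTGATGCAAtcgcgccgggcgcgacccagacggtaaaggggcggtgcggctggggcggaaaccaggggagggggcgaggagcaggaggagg
PSAT1: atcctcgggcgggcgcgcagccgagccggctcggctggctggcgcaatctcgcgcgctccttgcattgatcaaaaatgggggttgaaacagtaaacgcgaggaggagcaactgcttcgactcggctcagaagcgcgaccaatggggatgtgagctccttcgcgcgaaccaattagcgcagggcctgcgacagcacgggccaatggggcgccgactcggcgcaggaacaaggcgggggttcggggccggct
SHMT1: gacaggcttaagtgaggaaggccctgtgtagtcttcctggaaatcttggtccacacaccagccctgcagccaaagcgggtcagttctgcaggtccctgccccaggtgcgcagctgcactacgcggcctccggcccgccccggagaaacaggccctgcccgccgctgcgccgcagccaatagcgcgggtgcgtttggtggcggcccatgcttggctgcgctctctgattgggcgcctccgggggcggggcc

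The ASNS match reads TGATGAAA and begins 68 bases before the start, and the MTHFD1L match reads TGATGCAA and begins 90 bases before it. A further MTHFD1L window, shifted by a neighbouring start, holds the same match. TGATGNAA, searched on both strands, was in 3.14% of all 35116 RefSeq windows of this length and near 3.89% of the 27305 genes. The CCAAT box, also searched on both strands, matched 3 times in the PSAT1 window and 2 times in the SHMT1 window and was in 32% of all windows. CACGTG matched 1 time in the MTHFD1L window and in none of these ASNS, PSAT1 and SHMT1 windows, against 6.34% of all windows. Such a match is only a stretch of letters in this window.

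PSAT1 and ASNS had the largest log2 fold changes of the enzymes with each compound. The PSAT1 gene lies on chromosome 9 from 78297143 to 78330093 on GRCh38, as placed by GENCODE like those below. Levels are in CPM, read counts scaled to library size for comparing 1 gene between libraries. PSAT1 was read at 539 and 576 CPM with ICG-001, 323 and 328 CPM with CWP232228, and 466 and 499 CPM with YB-0158. In DMSO it was at 87.6 and 75.9 CPM. No treated library came near a DMSO library, and the 3 compounds did not overlap each other either. The log2 fold change against DMSO was 2.77 ± 0.09 (SE, adjusted p = 1.4e-06) with ICG-001, 1.99 ± 0.09 (adjusted p = 2.6e-05) with CWP232228 and 2.56 ± 0.09 (adjusted p = 1.9e-06) with YB-0158, which is 6.82-fold, 3.98-fold and 5.90-fold.

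PHGDH, upstream of PSAT1 in the pathway, rose less. Its gene lies on chromosome 1 from 119648411 to 119744226. Libraries held 166 and 162 CPM with ICG-001, 150.1 and 136 CPM with CWP232228, 156 and 154 CPM with YB-0158, and 70.6 and 78.4 CPM in DMSO. All 6 treated libraries were above both DMSO libraries. The log2 fold changes were 1.14 ± 0.08, 0.94 ± 0.08 and 1.05 ± 0.08 (SE, edgeR adjusted p = 3.1e-05, 4e-04 and 5.2e-05).

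PSPH, the last step of the serine branch on chromosome 7 from 56011051 to 56051604, was at 102 and 106 CPM with ICG-001, 84.9 and 80.4 CPM with CWP232228, 101 and 101 CPM with YB-0158, and 52.8 and 50.1 CPM in DMSO. The CWP232228 libraries lay between those of DMSO and those of both other compounds. Its log2 fold change was 1.02 ± 0.07 with ICG-001, 0.68 ± 0.07 with CWP232228 and 0.97 ± 0.07 with YB-0158 (SE, edgeR adjusted p = 3e-05, 0.00073 and 4.3e-05). The pseudogene PSPHP1 was read at 11 to 134 reads per library, at most 2.33 CPM, and the other pseudogenes of these enzymes held at most 13 reads in any library.

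Within the serine branch the proportions changed. The TPM of PSAT1 over that of PHGDH was 2.43 and 2.57 with ICG-001, 1.68 and 1.61 with CWP232228, 2.29 and 2.45 with YB-0158, and 0.941 and 0.723 in DMSO. PSAT1 over PSPH ran from 2.06 to 2.87 in treated libraries and was 0.953 and 0.958 in DMSO. TPM corrects for transcript length, so levels of different genes can be set side by side in it, unlike CPM. It still rests on how reads were split over the transcript models of each gene.

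The serine-to-glycine enzymes moved in opposite directions with ICG-001 and YB-0158, and with CWP232228 only SHMT1 was called. SHMT1, the cytosolic enzyme on chromosome 17 from 18327860 to 18363563, was at 41.7 and 44.3 CPM with ICG-001, 57.3 and 58.5 CPM with CWP232228, 42.2 and 43.8 CPM with YB-0158, and 88.2 and 98.1 CPM in DMSO. Every treated library was below every DMSO library. Its log2 fold change was -1.12 ± 0.08 with ICG-001, -0.69 ± 0.08 with CWP232228 and -1.11 ± 0.08 with YB-0158 (SE, edgeR adjusted p = 3.6e-05, 0.001 and 4.3e-05).

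SHMT2, the mitochondrial enzyme on chromosome 12 from 57229327 to 57234935, held 586 and 576 CPM with ICG-001, 463 and 413 CPM with CWP232228, 573 and 559 CPM with YB-0158, and 339 and 399 CPM in DMSO. Its log2 fold change was 0.65 ± 0.09 with ICG-001 (SE, edgeR adjusted p = 0.00079) and 0.62 ± 0.09 with YB-0158 (adjusted p = 0.0012). With CWP232228 the libraries also lay above both of DMSO, but at 0.25 ± 0.09 the gene did not pass the test (adjusted p = 0.061). That call rests on the processing: over 20 alternatives the adjusted p ran from 0.0016 to 0.28, and 6 of them called it. The authors' deposited table gives 0.28 with an adjusted p of 0.036.

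The TPM of SHMT2 over that of SHMT1 was 14.4 and 14.0 with ICG-001, 7.37 and 6.56 with CWP232228, and 13.9 and 12.2 with YB-0158. In DMSO it was 3.71 and 3.74. No treated library overlapped DMSO, and both CWP232228 libraries stood apart from the other treated ones.

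**Figure D2:**
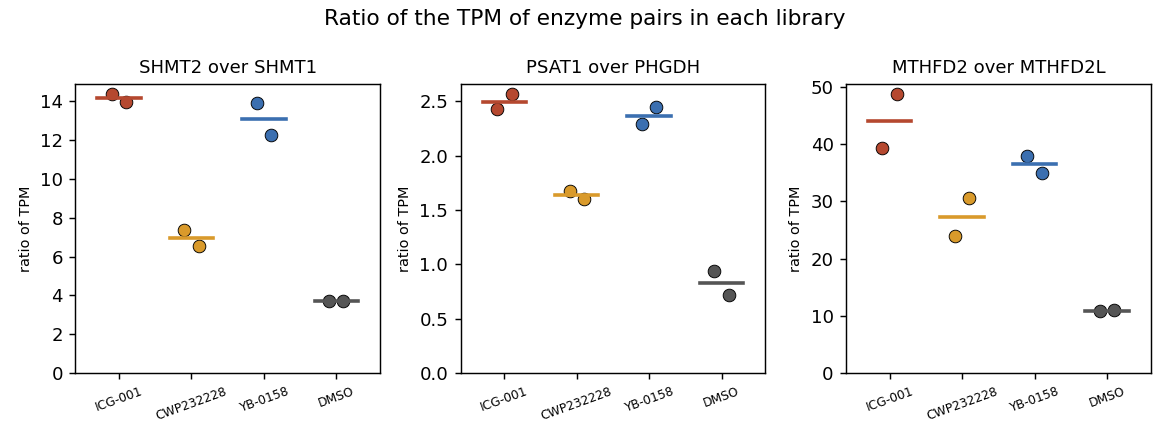
Ratio of the TPM of enzyme pairs (vertical axes from 0) in each library, with points for libraries and lines for the mean of 2, for ICG-001, CWP232228, YB-0158 and DMSO from left to right. SHMT2 over SHMT1 lies between 12.2 and 14.4 with ICG-001 and YB-0158, at 7.37 and 6.56 with CWP232228, and at 3.71 and 3.74 in DMSO.

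MTHFD2 and MTHFD1L, which act after SHMT2 in mitochondria, rose with every compound. MTHFD2, on chromosome 2 from 74198562 to 74217565, was at 427 and 460.5 CPM with ICG-001, 301 and 295 CPM with CWP232228, 398 and 409 CPM with YB-0158, and 139.7 and 119 CPM in DMSO. The compound libraries were all at least 295 CPM, and CWP232228 was below both other compounds without overlap. The log2 fold changes were 1.78 ± 0.09, 1.20 ± 0.09 and 1.64 ± 0.09 (SE, edgeR adjusted p = 7.4e-06, 0.00018 and 1.3e-05).

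MTHFD1L, on chromosome 6 from 150865549 to 151101887, followed the same order, with 134 and 134 CPM with ICG-001, 90.1 and 88.0 CPM with CWP232228, 124 and 122 CPM with YB-0158, and 40.8 and 44.7 CPM in DMSO. Groups did not overlap in any pair. It rose by 1.65 ± 0.07, 1.06 ± 0.07 and 1.53 ± 0.07 on the log2 scale (SE, edgeR adjusted p = 4.4e-06, 0.00016 and 6.8e-06). The authors' deposited table gives smaller values for it, 1.29, 0.80 and 1.26.

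ALDH1L2, on chromosome 12 from 105019784 to 105084577, was hardly read and was not tested. Its FPKM in the deposited tables (fragments scaled by transcript length and depth) was 0.0287 and 0.0904 with ICG-001, 0.333 and 0.0310 with CWP232228, 0.0684 and 0.176 with YB-0158, and 0.00561 and 0.0114 in DMSO. Summed over the annotation used here it held at most 7 reads in a library. Its mean scaled count over the libraries, 1.62, was 15.8% of the authors' mean of 10.3 normalized counts. The authors' deposited table gives log2 fold changes of 0.19, 0.16 and 0.24, with SEs of 0.47, 0.37 and 0.50 that exceed them. Its adjusted p is 0.17 for ICG-001 and 0.046 for YB-0158, with none for CWP232228. How these log2 fold changes were estimated is not stated, so they do not show that ALDH1L2 was unchanged. Of the mitochondrial route, then, 3 of 4 enzymes were measurable here.

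Other isozymes of the same reactions did not follow. MTHFD2L, a second mitochondrial enzyme with the activity of MTHFD2, was at 8.24 to 9.57 CPM in treated libraries and at 9.84 and 8.48 CPM in DMSO. Its log2 fold changes were -0.09, 0.01 and -0.09, with 95% intervals between -0.36 and 0.28 (edgeR adjusted p = 0.54, 0.97 and 0.56). The TPM of MTHFD2 over that of MTHFD2L was 39.4 and 48.7 with ICG-001, 23.9 and 30.6 with CWP232228, 37.9 and 35.0 with YB-0158, and 10.8 and 11.0 in DMSO. ALDH1L1, the cytosolic relative of ALDH1L2, was lower with all 3 compounds, at 10.6 and 10.7, 9.70 and 10.2, and 8.20 and 8.17 CPM, against 16.6 and 18.2 CPM in DMSO. Its log2 fold changes were -0.71 ± 0.10, -0.81 ± 0.10 and -1.09 ± 0.10 (SE, edgeR adjusted p = 0.00067, 0.0011 and 0.00012). The authors' deposited table gives ALDH1L1 -0.51, -0.55 and -1.27, the first of which is not called (adjusted p = 0.064).

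MTHFD1, the cytosolic enzyme of 3 folate activities, is uncertain here, because the transcripts matched gave 32.5% of the authors' mean for it. On those reads its log2 fold change was -0.81 with ICG-001 (edgeR adjusted p = 0.04), -0.09 with CWP232228 (0.8) and -0.70 with YB-0158 (0.067). The authors' deposited table gives -0.53, -0.25 and -0.56 for MTHFD1, with adjusted p of 0.00041, 0.13 and 0.00019.

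ASNS makes asparagine and stood next to PSAT1 in size of change. With YB-0158 their order depends on the processing, since the authors' deposited table gives 2.55 for ASNS and 2.54 for PSAT1. The gene, on chromosome 7 from 97852118 to 97872542, was at 402 and 449 CPM with ICG-001, 344 and 321 CPM with CWP232228, 368 and 417 CPM with YB-0158, and 66.4 and 68.8 CPM in DMSO. The lowest treated library was far above the highest DMSO library, while the ICG-001 and YB-0158 libraries overlapped. Log2 fold changes were 2.65 ± 0.09, 2.30 ± 0.09 and 2.54 ± 0.09 (SE, edgeR adjusted p = 1.6e-06, 1.6e-05 and 2.1e-06), or 6.29-fold, 4.92-fold and 5.81-fold. Reads on its pseudogenes ASNSP1, ASNSP3, ASNSP4 and ASNSP6 were at most 13 per library.

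PYCR1 changed least. It lies on chromosome 17 from 81932384 to 81942412 and was at 285 and 259 CPM with ICG-001, 238 and 206 CPM with CWP232228, 266 and 268 CPM with YB-0158, and 203 and 221 CPM in DMSO. The CWP232228 libraries overlapped those of DMSO, and the other treated libraries lay above both of DMSO. Its log2 fold change was 0.36 ± 0.09 with ICG-001 (SE, edgeR adjusted p = 0.011), 0.06 ± 0.09 with CWP232228 (adjusted p = 0.59, 95% interval -0.14 to 0.27) and 0.33 ± 0.09 with YB-0158 (adjusted p = 0.017). With 62.1% GC it has the highest GC content of the 10 enzymes, and a correction for GC content and length gave 0.77, 0.50 and 0.73, all called. Without replicate 1 of ICG-001 the first call was lost (0.29, adjusted p = 0.081), and the call for YB-0158 was lost without either of its libraries (adjusted p = 0.085 each). The adjusted p over 20 alternatives ran from 1e-05 to 0.081 for ICG-001, from 0.00063 to 0.91 for CWP232228 and from 1.6e-05 to 0.085 for YB-0158.

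PYCR3, the cytosolic enzyme that performs the same step as PYCR1, fell with every compound, to 16.1 and 14.3 CPM with ICG-001, 19.6 and 17.6 CPM with CWP232228 and 14.5 and 15.4 CPM with YB-0158, against 32.0 and 30.7 CPM in DMSO. Its log2 fold changes were -1.05 ± 0.10, -0.75 ± 0.10 and -1.07 ± 0.10 (SE, edgeR adjusted p = 0.00014, 0.0016 and 0.00015). ALDH18A1, which makes the precursor that the PYCR enzymes reduce, stood at -0.27, -0.22 and -0.19 by read counts (adjusted p = 0.0092, 0.025 and 0.045). That difference depends on the processing. In the authors' deposited table ALDH18A1 is at -0.015, -0.0096 and 0.024 (adjusted p = 0.92, 0.94 and 0.87). Its mean TPM was 113, 115 and 116 with ICG-001, CWP232228 and YB-0158, against 108 in DMSO. The reason for the disagreement was not tested.

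**Figure D3:**
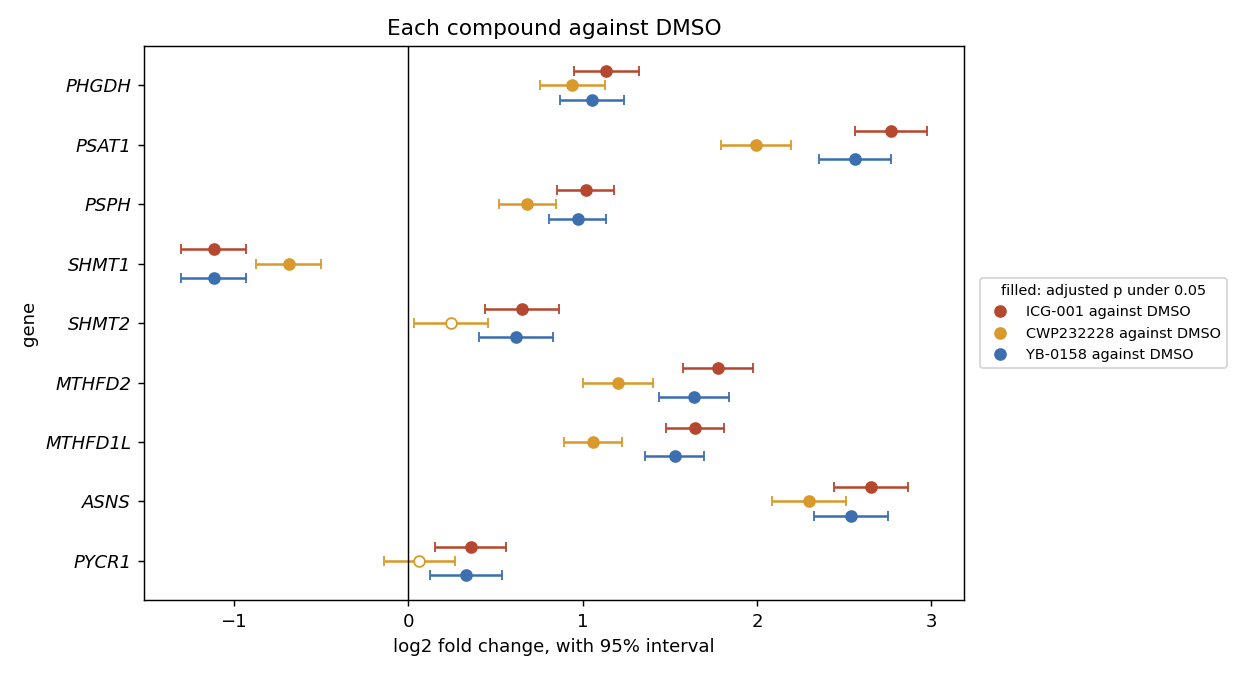
Log2 fold change of each compound against DMSO (horizontal axis) for the 9 tested enzymes (vertical axis), with 95% intervals from the edgeR fit. Filled points passed an adjusted p of 0.05; SHMT2 (0.25) and PYCR1 (0.06) with CWP232228 are open, and SHMT1 is the one gene left of 0.

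The order of the levels also differed between groups. In DMSO, SHMT2 was the most abundant enzyme mRNA at 200.2 and 184 TPM, followed by PYCR1 at 135 and 142 TPM and MTHFD2 at 134 and 96.2 TPM, whose means differed by less than the SD of MTHFD2. ASNS followed at 62.9 and 60.5 TPM, and SHMT1, PHGDH, PSPH and PSAT1 came next between 35.9 and 54.0 TPM, each overlapping its neighbour. With ICG-001, MTHFD2 at 423 and 424 TPM and ASNS at 405 and 403 TPM were the most abundant, ahead of SHMT2 at 336 and 325 TPM and PSAT1 at 294 and 297 TPM. The MTHFD2 level rests on how reads were split over its transcript models. With ICG-001 its protein-coding model MTHFD2-203 held 36.1 and 48.4 TPM. The nonsense-mediated decay model MTHFD2-208, of 1135 bases, held 164 and 125 TPM. The processed transcript MTHFD2-206, of 696 bases, held 83.8 and 57.2 TPM. The rank of MTHFD2 and its TPM ratio to MTHFD2L share this limit. SHMT1 was the lowest of the 9 tested with ICG-001, at 23.4 and 23.2 TPM. The 10 genes summed to 2011 and 1962 TPM with ICG-001, 1487 and 1430 TPM with CWP232228, 1879 and 1858 TPM with YB-0158, and 758 and 678 TPM in DMSO.

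Transcript choice within a gene was tested apart from the gene's total, on transcript counts with edgeR's diffSpliceDGE and a Simes p for each gene. None of the 9 enzymes tested passed an adjusted p of 0.05 with a share moved by at least 10 percentage points against DMSO, where 2.77%, 2.45% and 2.14% of 11611 genes did with ICG-001, CWP232228 and YB-0158 (3.88%, 3.58% and 3.2% without the condition on the share). At an unadjusted p below 0.05 there were 1, 1 and 3 enzymes and 1675, 1652 and 1575 genes. PYCR1 had the largest shift. Its short model PYCR1-212, of 377 bases, took 22.3% and 23.4% of the gene's TPM with ICG-001, 21.2% and 19.2% with CWP232228, 19.5% and 19.9% with YB-0158, and 0% and 3.96% in DMSO. The adjusted p was 0.17, 0.23 and 0.25 for PYCR1, and without DMSO replicate 2 the gene was called in all 3 comparisons. ASNS was called without ICG-001 replicate 1 in the first comparison and without CWP232228 replicate 2 in the second. In total, PYCR1 held 239.9 and 209 TPM with ICG-001, 191 and 175 TPM with CWP232228, and 212 and 215 TPM with YB-0158, against 135 and 142 TPM in DMSO, so that the CWP232228 libraries lay above DMSO in TPM while they overlapped it in CPM. The authors' deposited table likewise gives larger PYCR1 log2 fold changes than the read counts here, 0.58, 0.25 and 0.50, with adjusted p of 9.1e-05, 0.096 and 0.00060.

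The compounds were then set against each other. They were given at different doses, so these tests compare the libraries as dosed. With CWP232228 as against ICG-001, 6 enzymes were lower and SHMT1 was higher, where 3.17% and 3.65% of all genes were called lower and higher. PSAT1 differed most, at -0.78 ± 0.08 on the log2 scale (SE, edgeR adjusted p = 0.0029), then MTHFD1L at -0.59 ± 0.07 (0.0039) and MTHFD2 at -0.58 ± 0.09 (0.0078). SHMT2 at -0.41 (0.038), ASNS at -0.35 (0.048) and PSPH at -0.34 (0.029) followed, and SHMT1 stood at 0.43 ± 0.08 (0.02). PHGDH at -0.19 (95% interval -0.37 to -0.01, adjusted p = 0.19) and PYCR1 at -0.29 (-0.50 to -0.09, adjusted p = 0.091) were not called. The groups' libraries did not overlap for any of the 9 genes, as for 58.6% of all genes.

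The next comparison, YB-0158 against CWP232228, shares the CWP232228 libraries with the one above. PSAT1 at 0.57 ± 0.08 (SE, edgeR adjusted p = 0.0067), MTHFD1L at 0.47 ± 0.07 (0.0071), MTHFD2 at 0.44 ± 0.09 (0.02), SHMT2 at 0.37 ± 0.09 (0.047) and PSPH at 0.29 ± 0.07 (0.043) were higher, and SHMT1 at -0.43 ± 0.08 (0.018) was lower, where 3.56% and 4.21% of all genes were called higher and lower, 7.78% together. Libraries did not overlap for any of the 9 enzymes, as for 62.5% of all genes. ASNS at 0.24 (95% interval 0.04 to 0.44), PYCR1 at 0.27 (0.06 to 0.47) and PHGDH at 0.11 (-0.07 to 0.29) were not called.

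Between YB-0158 and ICG-001, none of the 9 enzymes passed the test. No enzyme was called by edgeR, DESeq2 or either limma fit, and 0.00608% of all genes (1 of 16449) were called by edgeR. At an unadjusted p below 0.05 there was 1 enzyme, PSAT1, and 918 genes. PSAT1 stood at -0.21 (95% interval -0.40 to -0.02, adjusted p = 0.87), and the other intervals lay between -0.33 and 0.19, so differences of that size are not shut out. The libraries of YB-0158 and ICG-001 did not overlap for 6 of 9 enzymes, where 45.1% of all genes did not overlap.

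Differences from CWP232228 were the least stable of these results. Against ICG-001, the calls of SHMT2, PSPH and ASNS held in 10, 11 and 12 of 20 alternatives, those of MTHFD2 and MTHFD1L in 15 and 16, and that of PSAT1 in 19. All 9 kept their direction over 20 alternatives against ICG-001, and all 9 did so between YB-0158 and CWP232228. The calls did not. Against ICG-001, 0 to 3 enzymes remained lower and none higher when any one ICG-001, CWP232228 or YB-0158 library was left out, 1 without ICG-001 replicate 1, 2 without ICG-001 replicate 2, 2 without CWP232228 replicate 1, 0 without CWP232228 replicate 2, and 3 without either YB-0158 library. Between YB-0158 and CWP232228, 3 remained higher without either ICG-001 library and 0 without any one YB-0158 or CWP232228 library, where SHMT1 was also no longer called. A group left with 1 library is assumed to vary like the others. CWP232228 libraries were also shallower, with 30497938 and 30051125 reads, than those of ICG-001, with 54059369 and 42638274, and of YB-0158, with 57425171 and 39264940. The part of depth in these differences was not tested.

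**Figure D4:**
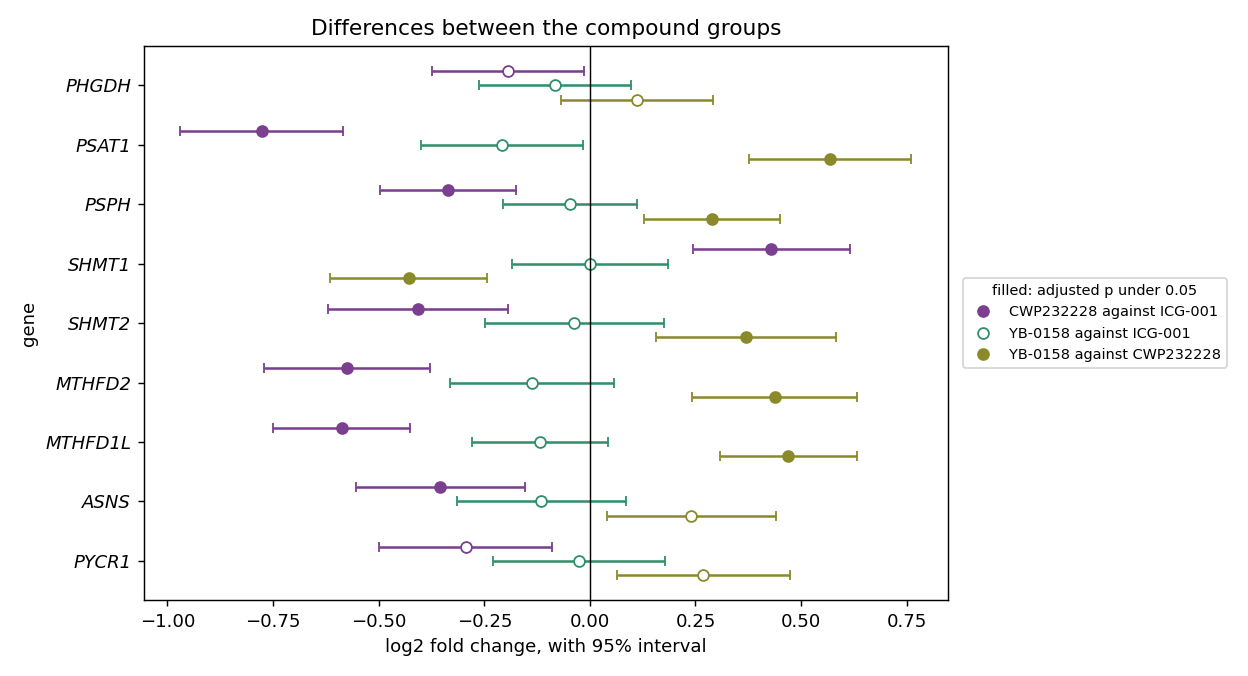
Log2 fold change between compound groups (horizontal axis) for the 9 tested enzymes (vertical axis), with 95% intervals from the edgeR fit and filled points for an adjusted p below 0.05. CWP232228 against ICG-001 lies left of 0 for every enzyme but SHMT1 (0.43), and no YB-0158 against ICG-001 point is filled.

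The counts of called genes in the neighbouring pathways are to be read against the share of all genes called, 24.8% higher and 24% lower with ICG-001, 21.6% and 21.2% with CWP232228, and 21.7% and 22.1% with YB-0158, and several lie near it. Of 11 other serine and glycine enzymes tested, 0 rose and 4 fell with ICG-001, 1 rose and 4 fell with CWP232228, and 0 rose and 5 fell with YB-0158, with medians of -0.20, -0.12 and -0.28. SARDH, which oxidises sarcosine to glycine in mitochondria, fell with all 3 compounds (log2 fold changes -1.94, -1.32 and -1.66, edgeR adjusted p at most 0.0011), as did GLYCTK, a glycerate kinase (-1.10, -0.60 and -1.26, adjusted p at most 0.0096). GCAT, which makes glycine from a threonine product, fell by similar amounts (-0.91, -1.04 and -0.97). AGXT, a glyoxylate transaminase read at 0.617 CPM with YB-0158 and 1.25 CPM in DMSO on average, stood at -0.99 ± 0.35 with YB-0158 (SE, adjusted p = 0.048) but is not called in the authors' deposited table (-0.44, adjusted p = 0.16).

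Among 19 folate cycle genes tested, 3 rose and 7 fell with ICG-001, 4 rose and 4 fell with CWP232228, and 2 rose and 7 fell with YB-0158, and the medians were -0.09, 0.01 and -0.09. TYMS, which makes thymidylate, fell by 0.77 on the log2 scale with ICG-001 and by 0.88 with YB-0158 (edgeR adjusted p = 9.7e-05 and 6.3e-05), and stood at -0.03 with CWP232228 (adjusted p = 0.79). GGH, a folate hydrolase, had the same pattern, falling with ICG-001 (-0.61) and YB-0158 (-0.68) and standing at 0.05 with CWP232228 (adjusted p = 0.79). DHFR2, a dihydrofolate reductase, rose with all 3 compounds (0.43, 0.53 and 0.45), and MTR, the methionine synthase, rose with CWP232228 (0.46, adjusted p = 0.011). In the authors' deposited table DHFR2 is called with CWP232228 alone (0.61, adjusted p = 0.0040) and MTR is not called (0.42, adjusted p = 0.084).

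Of 9 methionine cycle and transsulfuration genes tested, 4, 3 and 4 rose and 2, 1 and 1 fell with ICG-001, CWP232228 and YB-0158. CTH, which makes cysteine from cystathionine, was at 26.4 and 29.7 CPM with ICG-001, 15.4 and 14.6 CPM with CWP232228, 25.0 and 26.9 CPM with YB-0158, and 6.22 and 4.31 CPM in DMSO. Its log2 fold changes were 2.41 ± 0.16, 1.51 ± 0.16 and 2.30 ± 0.16 (SE, edgeR adjusted p = 2.4e-05, 0.00077 and 3.3e-05). With each compound that was below PSAT1 and ASNS and above the other tested enzymes of the set. MAT2A, which makes S-adenosylmethionine, rose by 0.96, 0.76 and 0.79, and AHCYL2 by 0.53, 0.45 and 0.59. The authors' deposited table calls AHCYL2 with YB-0158 alone (0.64, adjusted p = 0.0082), with 0.46 and 0.39 for ICG-001 and CWP232228.

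Of 8 other proline and ornithine enzymes tested, 2 rose and 4 fell with ICG-001, 1 rose and 3 fell with CWP232228, and 2 rose and 4 fell with YB-0158. ODC1, the first enzyme of polyamine synthesis, rose by 0.59, 0.40 and 0.64 (edgeR adjusted p at most 0.0039), and ARG2, the mitochondrial arginase, rose by 0.97 with ICG-001 and 0.69 with YB-0158 and stood at 0.32 with CWP232228 (adjusted p = 0.087). The authors' deposited table gives ARG2 0.33 with YB-0158, not called (adjusted p = 0.17). ALDH4A1, which takes part in proline breakdown, fell with all 3 (-0.47, -0.31 and -0.40). Among 14 aspartate, asparagine, glutamine and alanine genes tested, 6 rose and 7 fell with ICG-001, 5 rose and 6 fell with CWP232228, and 5 rose and 7 fell with YB-0158. ASS1, which consumes aspartate to make argininosuccinate, rose by 1.56, 0.71 and 1.36, whereas ASL, the next enzyme, fell (-0.81, -0.75 and -0.82). The alanine transaminases split: GPT, the cytosolic one, fell (-1.11, -0.85 and -1.31), and GPT2, the mitochondrial one, rose (1.05, 0.58 and 1.10, edgeR adjusted p at most 0.0012).

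Of 13 regulators of the amino acid response, 6 rose with each compound and 1, 1 and 2 fell, with medians of 0.49, 0.30 and 0.60. TRIB3, a pseudokinase induced by ATF4, rose by 2.17 ± 0.11 with ICG-001, 0.90 ± 0.11 with CWP232228 and 2.26 ± 0.11 with YB-0158 (SE, edgeR adjusted p = 7.4e-06, 0.00096 and 6.8e-06). DDIT3, a stress-induced transcription factor, rose by 1.76, 0.52 and 1.88, and ATF3, another one, by 1.46, 0.48 and 1.60 (adjusted p at most 0.031). With CWP232228 the authors' deposited table calls neither, with DDIT3 at 0.40 (adjusted p = 0.056) and ATF3 at 0.19 (0.35). EIF2AK2, a kinase of eIF2alpha, rose with CWP232228 (0.77, adjusted p = 0.014) and stood at 0.49 with ICG-001 and 0.42 with YB-0158 (adjusted p = 0.059 and 0.097), whereas the authors' deposited table has it higher with all 3 compounds, at 0.80, 1.00 and 0.71 (adjusted p = 0.0046, 0.00074 and 0.012). ATF4 mRNA itself was not called, at 0.02, -0.02 and 0.08 (95% intervals between -0.22 and 0.29), and is named here outside the naming rule. CEBPG is uncertain, since the reads matched are 42.5% of the authors' mean; the authors' deposited table gives log2 fold changes of 1.44, 0.74 and 1.44 for it.

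**Figure D5:**
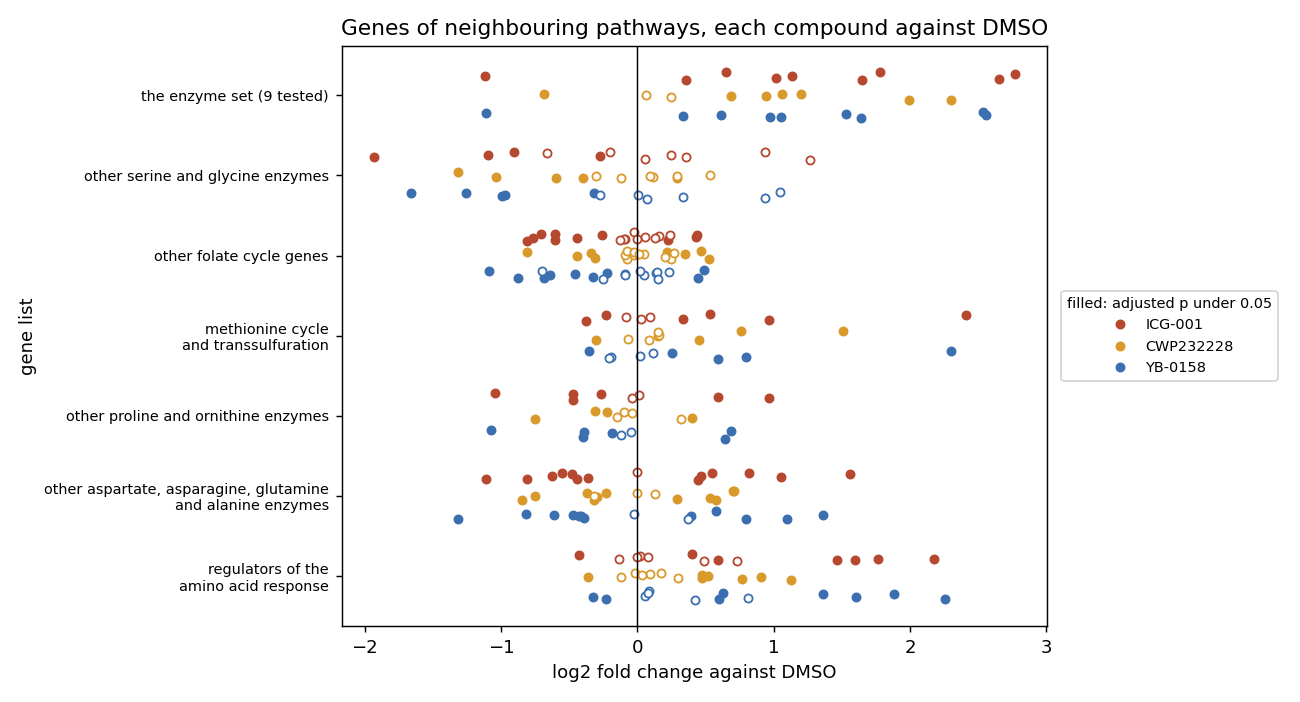
Log2 fold change against DMSO (horizontal axis) of every tested gene in the enzyme set and 6 neighbouring gene lists (vertical axis), coloured by compound, with ICG-001 above CWP232228 above YB-0158 in each list and filled points for an adjusted p below 0.05. The enzyme set lies right of 0 apart from SHMT1, while the other lists spread to both sides.

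Across the 8 libraries the enzymes varied together, with SHMT1 going the opposite way. The Pearson r of each enzyme's log2 CPM with the mean of the others was 0.98 to 0.99 for PHGDH, PSAT1, PSPH, MTHFD2, MTHFD1L and ASNS, 0.90 for SHMT2, 0.77 for PYCR1 and -0.98 for SHMT1. Among 11326 other genes with a mean log2 CPM of at least 2, the 10 whose pattern was most like the enzymes' mean had r between 0.995 and 0.998. They were EPRS1, a tRNA synthetase for glutamate and proline, the glycine transporter SLC6A9, the neutral amino acid transporter SLC1A4, the adhesion molecules CEACAM6 and CEACAM5, which are close relatives whose reads may be shared, the receptor ADGRF1, TUBE1, the carbonic anhydrase CA12, the adaptor SH2B3 and ZNF195. The log2 fold changes of SLC6A9 were 4.88, 3.50 and 4.82, those of EPRS1 1.53, 1.11 and 1.41, and those of CA12 0.49, 0.32 and 0.42 with ICG-001, CWP232228 and YB-0158. These correlations describe 8 libraries in 4 groups that share their normalization and depth.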

How the data were processed

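RNA-seq libraries from total RNA (TruSeq RNA v2, a kit that does not mark strand, Illumina NextSeq, per the labels' protocols) came from HT29 cells in 4 groups of 2. Per the submitters' processing notes, fastp, Salmon 1.3.0, DESeq2 and GRCh38 were used. The roles and settings of these tools are not stated in the sources used here. The authors' log2 fold changes may therefore not be the same measure as the edgeR values set beside them. The authors deposited Salmon's estimated count and TPM per transcript, and tables with FPKM per gene and library, a mean signal of normalized counts, a log2 fold change with its SE and a p-value per compound.

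Estimated counts of 204677 of 228754 transcripts (89.5%) were matched to GENCODE release 29, summed over 58193 genes and rounded. Unmatched transcripts, with 1.54% to 1.85% of reads, entered no test. edgeR 4.0.16 (R 4.3.3; TMM, filterByExpr, robust quasi-likelihood) fitted all 8 libraries in 4 groups (4 residual degrees of freedom) and tested 16449 genes. CPM uses TMM-scaled library sizes and is given with the SD of 2 libraries, and 95% intervals come from the fit. A count of 0, which allows up to 3 reads, sets a floor of 0.0522 to 0.106 CPM. Floors cover counting error only. limma 3.58.1 and DESeq2 1.42.0 served as alternatives. The same code was tested on simulated counts.

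The enzymes, 6 further lists with 87 genes and 4 marker lists were chosen with earlier results of these data known. Named genes were all members, 6 partner enzymes (1 of them not reported here), the 3 called genes with the largest change per list and compound, and the 10 most similar patterns. The replicate numbers did not pair the libraries by the rule used.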

Additional observations from a re-analysis of the deposited data

How the results depend on the processing

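Over 20 alternatives, the calls against DMSO of PHGDH, PSAT1, PSPH, SHMT1, MTHFD2, MTHFD1L and ASNS with all 3 compounds, and of SHMT2 with ICG-001 and YB-0158, kept their direction and their side of the threshold. PYCR1 against DMSO with CWP232228 ran from -0.0381 without CWP232228 replicate 1 to 0.1691 without replicate 2. Between YB-0158 and ICG-001, SHMT1 (0.0005) turned to -0.0034 with no low-count filter, -0.0213 with the GC and length correction, -0.0201 with that correction and the replicate block, -0.0255 without YB-0158 replicate 2 and -0.0424 without ICG-001 replicate 1, with 0.0444 as the highest value when a library was left out. PSPH turned to 0.0199 with a transcript length offset and 0.0254 with limma on log2(FPKM + 1), and PYCR1 to 0.0468 without ICG-001 replicate 1, against -0.0939 without replicate 2. The causes were not tested. No scaling moved the median of all genes by over 0.1.

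Genes called for CWP232228 against DMSO (7042) numbered 4144 with only these groups in the fit, 4673 with the GC and length correction, 4300 with that and the block, 3367 with the length offset and 3808 by limma on FPKM. For CWP232228 against ICG-001 (1121) they were 2840, 2663, 2372, 185 and 246, with 2126 under no filter, 653 under the replicate block and 2745 under voom with a weight per group. For YB-0158 against CWP232228 (1279) the same alternatives gave 3293, 2683, 2421, 228, 270, 2378, 814 and 3507. For YB-0158 against ICG-001 (1) they gave 34, 12, 0, 0, 0, 268, 0 and 41, with 26 under DESeq2 and 2 under upper-quartile scaling. Enzymes lower with CWP232228 than with ICG-001 (6) were 3 under the block (PSAT1, MTHFD2 and MTHFD1L, so that SHMT2, ASNS and PSPH were lost), 2 under the length offset and 3 by limma on FPKM, and those higher with YB-0158 than with CWP232228 (5) were 3, 1 and 1.

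Leaving out each library in turn gave 5140 to 9412 genes for ICG-001, 2747 to 8798 for CWP232228 and 4237 to 8846 for YB-0158 against DMSO, 41 to 2940 for CWP232228 against ICG-001, 0 to 35 for YB-0158 against ICG-001 and 88 to 3306 for YB-0158 against CWP232228. Enzymes called were 0 to 8 lower and 0 to 1 higher for CWP232228 against ICG-001, and 0 to 7 higher and 0 to 1 lower for YB-0158 against CWP232228. Enzymes with changed transcript usage were 0 to 1 in each comparison with DMSO.

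Replicate numbers paired the libraries by no label, and the deviations of same-numbered libraries correlated at -0.32, -0.32 and -0.25 between ICG-001, CWP232228 or YB-0158 and DMSO and at 0.21 to 0.48 among compounds, so the block rests on the numbers alone. With the DMSO numbers crossed, an alternative chosen after seeing the data, 1929 genes were called for CWP232228 against ICG-001, 0 for YB-0158 against ICG-001 and 2165 for YB-0158 against CWP232228. The fit assumes 1 spread for all groups although the DMSO libraries differed more, and 2 libraries per group limit every test.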
